A study of Rattus norvegicus with 6 samples.

Results

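Metallothioneins and the zinc exporters Slc30a1 and Slc30a10 were described across brain cell classes of rats poisoned with carbon monoxide (CO) and of normal control rats (NC). The set was chosen by name, with earlier results of these data known, and also names the metal response factor Mtf1. Of its 7 genes, 6 are among the 15227 genes of the files used here: Mt1, Mt1m, Mt2A, Mt3, Slc30a1 and Slc30a10. Levels of Mtf1 were not analysed here, and its promoter alone is described. CO rats breathed 1000 ppm of the gas for 40 minutes in a sealed chamber and then 3000 ppm for 20 minutes. The poisoning was taken as severe when consciousness was impaired and over 60% of hemoglobin carried CO. NC rats are labelled as negative control, with no exposure described. Each group has 3 droplet libraries (10x Genomics) of dissociated cerebral hemisphere, and strain, sex, age and the time from exposure to dissection are not given in the sources used here.

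Metallothioneins are small, cysteine-rich proteins that bind zinc and copper. In most tissues Mt1 and Mt2A are switched on together by free zinc through the transcription factor Mtf1, which binds short metal response elements before their start sites, and by glucocorticoids and cytokines. Mt3 is the brain form and is known to respond less to metals. Slc30a1 carries zinc out across the plasma membrane and is itself a target of Mtf1, and Slc30a10 is known mainly as a manganese exporter.

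Promoters annotated under these gene names are shown first, because they carry the elements through which metals act on this family. Promoter sequences of 5 of the 7 genes were found in RefSeq (build GRCr8), and those of Mt1, Mt2A, Mt3 and Slc30a1 follow as the 250 bases before the annotated start, 5′ to 3′ on the strand of the gene. Capitals mark the metal response element core, TGCACNC or TGCGCNC, on either strand.
Mt1, chr19:10832976-10833225, minus strand: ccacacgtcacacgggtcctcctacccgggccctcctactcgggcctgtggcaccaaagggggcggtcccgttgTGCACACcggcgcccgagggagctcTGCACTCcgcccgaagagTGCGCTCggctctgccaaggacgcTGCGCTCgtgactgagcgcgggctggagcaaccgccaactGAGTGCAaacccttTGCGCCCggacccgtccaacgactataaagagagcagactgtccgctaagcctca
Mt2A, chr19:10838709-10838958, minus strand: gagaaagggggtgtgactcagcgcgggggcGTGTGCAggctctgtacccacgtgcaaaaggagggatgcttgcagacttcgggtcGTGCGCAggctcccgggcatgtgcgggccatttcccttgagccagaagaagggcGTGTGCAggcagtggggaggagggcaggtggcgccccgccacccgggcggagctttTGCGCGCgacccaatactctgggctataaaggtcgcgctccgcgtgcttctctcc
Mt3, chr19:10856081-10856330, minus strand: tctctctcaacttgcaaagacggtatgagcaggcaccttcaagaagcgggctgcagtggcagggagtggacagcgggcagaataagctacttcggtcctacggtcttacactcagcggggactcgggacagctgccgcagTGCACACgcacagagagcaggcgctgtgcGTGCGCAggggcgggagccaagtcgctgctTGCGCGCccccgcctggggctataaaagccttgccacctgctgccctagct
Slc30a1, chr13:106021769-106022018, plus strand: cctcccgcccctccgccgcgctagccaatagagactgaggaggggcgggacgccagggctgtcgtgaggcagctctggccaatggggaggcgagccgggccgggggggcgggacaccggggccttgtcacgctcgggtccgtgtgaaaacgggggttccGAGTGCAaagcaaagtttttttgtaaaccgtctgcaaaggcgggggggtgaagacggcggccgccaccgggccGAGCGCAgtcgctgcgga

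Cores were counted in all 33469 promoter windows of that length. Mt1 held 6 cores, a number reached by 0.0239% of windows, Mt2A held 4 (0.128% held at least as many), Mt3 held 3 (0.732%), and Slc30a1 and Mtf1 held 2 each (3.99%). At least 1 core was present in 20.6% of windows. No match overlapped another in these 5 promoters. The glucocorticoid receptor core AGAACA was found in 17.5% of windows, and the STAT site TTCNNNGAA in 7.67%. Neither was found in the windows of Mt1, Mt2A, Mt3 or Slc30a1, and the Mtf1 window held 1 such core. A match describes letters only, and no match says only that these letters are not in this window.

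**Figure D1:**
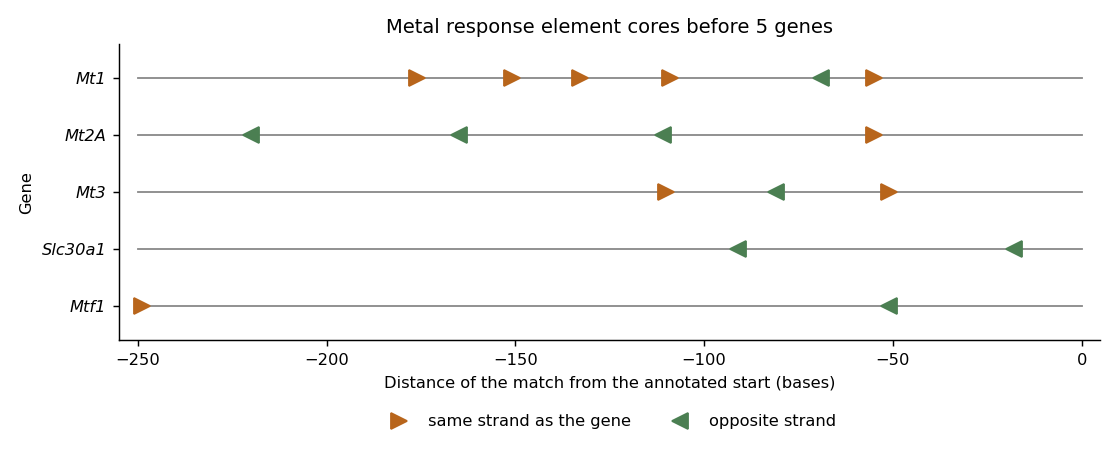
Positions of metal response element cores in the 250 bases before the start of 5 genes. The x axis is the distance of each match from the annotated start in bases, and arrows point along the strand of the match. Mt1 holds 6 cores between -176 and -55, and the 3 cores of Mt3 lie within 110 bases of the start.

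The gene rows need a caution before their values are read. The row named Mt1 (ENSRNOG00000038047) lies between Dclre1c and Meig1, genes that GRCr8 places on chromosome 17 beside the pseudogene Mt1-ps3, whereas GRCr8 places Mt1 itself on chromosome 19 next to Mt2A (ENSRNOG00000043098) and Mt3 (ENSRNOG00000018958). Which Mt1 copy the row counts could not be told from the files, so its values are those of the row labelled Mt1. The Mt1 promoter shown above is that of the chromosome 19 gene and may not belong to the copy counted. Mt1m (ENSRNOG00000028841) is a pseudogene on chromosome 20 in the same annotation. Reads could be split among such near-identical copies. Slc30a1 (ENSRNOG00000004749) and Slc30a10 (ENSRNOG00000002397) lie on chromosome 13.

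The CO libraries held 39494470 to 42975621 unique molecular identifiers (UMIs, 1 per captured transcript) and the NC libraries 42448680 to 47322264. Of 42293 barcodes, 38027 had at least 500 UMIs and 200 genes, and 20976 of these took a class from marker genes that include no metallothionein or transporter of this set. This was 49.6% of the kept CO barcodes and 60.0% of the kept NC barcodes. A class was used when each library gave it 10 cells or more, which left 14; their 10 leading genes held 1 to 6 of their own markers and none of another class. In endothelial-gated cells the means of the 3 CO libraries differed by 1.05 times what parts of 1 pool of cells would give, and those of the 3 NC libraries by 0.999 times, against 24.5 times between the groups. Over all kept barcodes the values were 1.12, 1.02 and 67.1. Each group was therefore counted as 1 sample (n = 1 each), although the submitters describe 3 animals in each group. No p-value is given, and a ratio carries an exact 95% interval for counting error only.

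Levels are counts per 1000000 UMIs (CPM) of the summed class, scaled with TMM factors. A ratio was read when a gene had at least 30 counts over both groups, and a gene was called higher or lower in CO when the groups differed at least 1.5-fold. Over 6 genes and 14 classes, 56 of 84 pairs had enough counts, 39 were called higher and 2 lower. Over the classes, 7.18% to 27.4% of all genes with enough counts were called higher, and 9.25% to 25.5% lower. The set was chosen with this contrast known, so the counts describe it and nothing more is read from them.

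Mt2A and Mt3 had their highest summed levels in ependymal-gated cells, the ciliated lining of the ventricles, in both groups (plot of metallothionein levels). In CO libraries the row labelled Mt1 was highest in ependymal cells, at 2479 CPM, followed by smooth muscle at 1584, endothelial cells at 1260 and fibroblasts at 1162 CPM. The order in NC libraries differed: smooth muscle came first at 1043 CPM, then ependymal cells at 580, fibroblasts at 555 and endothelial cells at 386 CPM. In CO, smooth muscle overlapped endothelial cells and endothelial cells overlapped fibroblasts over libraries, and in NC ependymal cells overlapped fibroblasts. Astrocytes ranked 5 of 14 in CO, at 332 CPM, and 9 of 14 in NC, at 49.0 CPM. Mt3 kept the same leading classes in both groups, ependymal cells and then astrocytes, with no overlap between libraries of these classes. The lowest levels of Mt1 in both groups were in oligodendrocytes, at 18.8 CPM in CO and 7.45 CPM in NC.

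**Figure D2:**
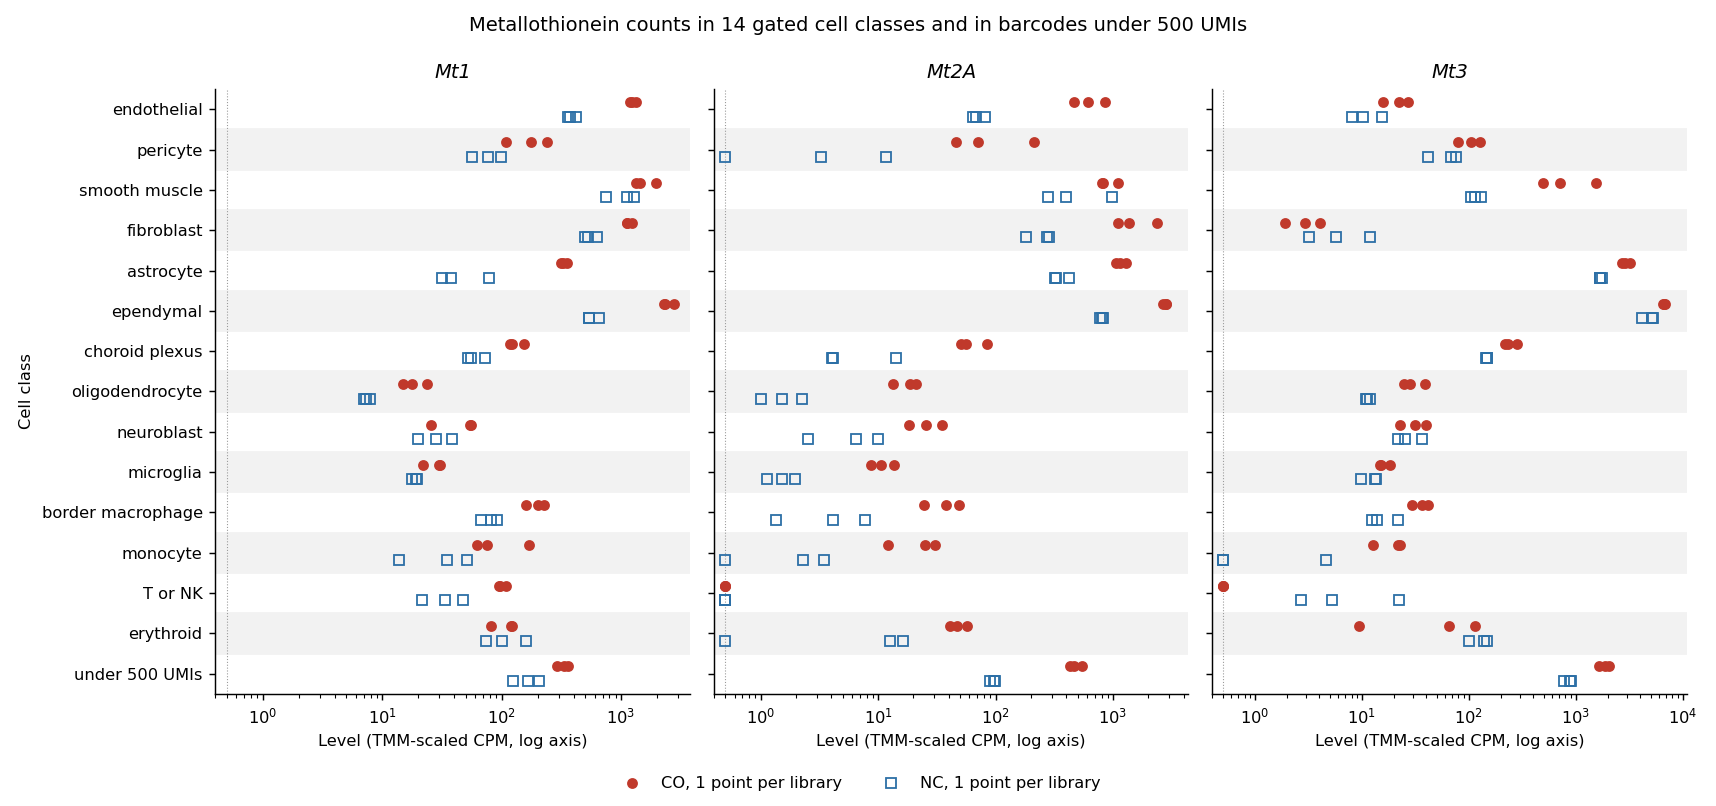
Levels of Mt1, Mt2A and Mt3 (TMM-scaled CPM, log axis) in 14 gated cell classes and in barcodes under 500 UMIs, 1 point per library. Filled circles are CO and open squares NC; a value of 0 is drawn on the dotted line at the left. Mt2A in endothelial cells lies between 462 and 857 CPM in CO libraries and between 64.2 and 81.6 CPM in NC libraries.

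In endothelial-gated cells (1839 CO and 2584 NC cells), the lining of the brain vessels, 4 of 6 genes were called higher in CO, where 12.4% of all genes were, and 0 lower, beside 14.4%. The row labelled Mt1 had 1337, 1192 and 1245 CPM in the CO libraries, against 421, 361 and 374 CPM in the NC libraries. All CO libraries lay above all NC libraries, and the ratio was 3.27 (3.17 to 3.37). Mt2A had 609, 857 and 462 CPM in CO, against 64.2, 68.3 and 81.6 CPM in NC. Its ratio of 8.90 (8.34 to 9.50) was at rank 22 of 10843 genes in this class. CO libraries were more unequal for Mt2A than for Mt1, but the groups did not overlap for either. Slc30a1 was at 109, 106 and 108 CPM in CO and at 79.2, 82.9 and 83.2 CPM in NC, a ratio of 1.32 (1.22 to 1.43). This missed 1.5-fold although the libraries did not overlap. Mt3 was low, with 21.5 CPM in CO and 11.3 CPM in NC, a ratio of 1.90 that was 2.96 after thinning.

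Ependymal-gated cells (201 CO and 160 NC) had the highest summed Mt2A and Mt3 levels of all classes in both groups. In NC the Mt2A libraries overlapped those of smooth muscle, where 1 library reached 988 CPM. Here 4 of 6 genes were called higher and 1 lower, beside 17.5% and 15.4% of all genes. Mt2A had 2821, 2656 and 2850 CPM in CO and 775, 825 and 813 CPM in NC, a ratio of 3.45 (3.26 to 3.66). The row labelled Mt1 had 2295, 2803 and 2335 CPM in CO and 650, 543 and 541 CPM in NC, a ratio of 4.27 (4.00 to 4.57). For both, the CO libraries stood well above the NC libraries. Mt3 had 6804, 6525 and 6665 CPM in CO and 4182, 5278 and 5131 CPM in NC. Its libraries did not overlap, but the ratio of 1.38 (1.34 to 1.41) stayed under 1.5-fold. Slc30a10 was called lower on few counts, 15 in CO and 19 in NC, with overlapping libraries, and without CO library 1 its ratio of 0.503 became 0.692 and was not called. The 9 endothelial markers summed to 431 to 595 CPM over the CO libraries of ependymal cells and 29.3 to 66.1 CPM over the NC libraries, against at least 14985 CPM in endothelial cells themselves. Cdh5, Esam and Emcn were at 0 in NC and no marker was at 0 in CO. Their part in the ependymal calls, that of Slc30a1 on 38 and 11 counts included, was not tested.

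Astrocyte-gated cells (695 CO and 522 NC) had 4 of 5 genes called higher, beside 14.4% of all genes, and 0 lower, beside 15% of all genes. The row labelled Mt1 had 316, 352 and 325 CPM in CO, against 37.8, 77.7 and 31.7 CPM in NC. The ratio of 6.78 (5.56 to 8.33) was its largest in any class. Mt2A had 1071, 1282 and 1149 CPM in CO and 328, 419 and 322 CPM in NC, a ratio of 3.30 (3.05 to 3.57). Mt3, an astrocyte gene in the normal brain, had 2893, 2692 and 3192 CPM in CO and 1681, 1745 and 1699 CPM in NC, a ratio of 1.71 (1.65 to 1.78). None of the 3 genes overlapped between groups. The median astrocyte had fewer UMIs in CO (2418) than in NC (3524). In cells thinned to 2000 UMIs the Mt1 ratio was 11.3. Slc30a1 was called higher on 34 counts in CO and 12 in NC.

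Mural cells wrap the vessels outside the endothelium, and fibroblasts lie around larger vessels and in the meninges. In pericyte-gated cells (511 CO and 470 NC), contractile cells of the capillary wall, 3 of 5 genes were called higher, beside 15.1% of all genes, and 0 lower, beside 14.1%. Mt2A had 45.9, 71.0 and 214 CPM in CO and 11.7, 0 and 3.29 CPM in NC, from 218 counts in CO and 8 in NC. The ratio of 21.5 (10.7 to 50.5) was 11.7 without CO library 3, 58.7 without NC library 1 and 13.7 after thinning, so its size rests on single libraries. The pericyte Mt1 ratio was 2.31 (1.88 to 2.85). The 9 endothelial markers summed to 2862 to 3386 CPM over the CO libraries of pericytes and 2820 to 3726 CPM over the NC libraries. Endothelial cells themselves summed to at least 14985 CPM. The part of endothelial RNA in the pericyte levels of Mt1, Mt2A and Slc30a1 was not tested. The Mt3 ratio in pericytes, 1.68, was 1.49 without CO library 3 and 1.40 without NC library 3, and then not called. The 11 astrocyte markers summed to 2045 to 2065 CPM over the CO libraries of pericytes and 2391 to 2988 CPM over the NC libraries. Astrocytes themselves summed to at least 21055 CPM. The part of astrocyte RNA in the pericyte Mt3 level was not tested. In fibroblast-gated cells (63 CO and 100 NC) 3 of 3 genes were called higher, beside 20.0% of all genes, and 0 lower, beside 25.3%. Their Mt2A level was 1102, 2357 and 1360 CPM in CO and 284, 277 and 181 CPM in NC, a ratio of 6.02 (5.43 to 6.69), and their Mt1 ratio was 2.09 (1.93 to 2.27). In pericytes and fibroblasts the CO libraries lay above the NC libraries for Mt1 and Mt2A.

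In smooth muscle-gated cells (45 CO and 57 NC), which form the arterial wall, 3 of 3 genes were called higher, beside 23.9% of all genes, and 0 lower, beside 24.2%. Here Mt3 had the largest ratio, with 494, 711 and 1544 CPM in CO and 104, 129 and 114 CPM in NC, or 7.67-fold (5.93 to 10.1). The Mt2A libraries overlapped, at 811, 1101 and 820 CPM in CO and 280, 988 and 394 CPM in NC. The Mt2A ratio of 1.83 was 1.497 without NC library 1 and 1.31 after thinning, neither of which is a call. The Mt1 ratio of 1.52 was 1.33 without CO library 2, 1.33 without NC library 1, 1.40 with total counts, 1.46 with DESeq2 size factors, 1.48 with at least 2000 UMIs and 1.49 after thinning, so its call was lost in each. The Mt3 ratio was 4.08 after thinning. The 11 astrocyte markers summed to 290 to 321 CPM over the CO libraries and 207 to 254 CPM over the NC libraries, with Aqp4, Gja1 and Slc1a2 at 0 in both groups, and 1 of 7 ependymal markers was seen in CO and 0 in NC. Astrocytes themselves summed to 24230 CPM or more in CO. Their part in the Mt3 difference was not tested.

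Classes with low levels also had higher ratios. In choroid plexus-gated cells (350 CO and 297 NC), 3 of 4 genes were called higher, beside 14.5% of all genes, and 0 lower, beside 16.4%. Mt2A had 63.2 CPM in CO and 7.52 in NC, a ratio of 8.41 (6.63 to 10.8) that was 15.4 without NC library 3 and 15.5 after thinning, Mt1 a ratio of 2.18 and Mt3 of 1.65. The median choroid plexus cell had 6979 UMIs in CO and 38591 in NC. In oligodendrocyte-gated cells (1386 CO and 3445 NC), 3 of 4 were called higher, beside 8.57% of all genes, and 0 lower, beside 9.25%. Mt2A was at 17.9 CPM in CO and 1.61 CPM in NC, a ratio of 11.1 (8.40 to 14.9). It became 4.19 without the barcodes of highest doublet score, with the same direction. Neuroblast-gated cells (592 CO and 192 NC) had 4 of 5 genes called higher, beside 17.5% of all genes, and 0 lower, beside 10.4%. Their Mt2A ratio was 3.99 (2.03 to 8.94), and their Slc30a1 ratio of 5.67 rested on 37 counts in CO and 2 in NC and was 3.75 without NC library 1. The Mt1 call there, at 1.54-fold with overlapping libraries, was lost without CO library 2 (1.36), CO library 3 (1.39) or NC library 2 (1.36), and without the highest doublet scores (1.32).

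Mt2A was at 0 in T or NK cells and next lowest in microglia in both groups, where the libraries of microglia overlapped those of oligodendrocytes. In microglia-gated cells (2157 CO and 3176 NC), the resident macrophages of the brain, Mt2A alone was called higher among 4 genes with enough counts, beside 7.18% of all genes, and 0 was lower, beside 10.1%. Its levels were 10.5, 13.6 and 8.63 CPM in CO and 1.98, 1.52 and 1.14 CPM in NC, which do not overlap, and the ratio was 7.01 (4.62 to 11.0). The Mt1 ratio in microglia was 1.45 (1.25 to 1.69) and reached 1.61 without CO library 3. Border macrophage-gated cells (367 CO and 476 NC), whose leading genes include the chemokines Cxcl1 and Cxcl2, had 3 of 4 genes called higher, beside 15.3% of all genes, and 0 lower, beside 16.9%. Their Mt2A ratio of 8.72 was 13.6 without NC library 1 and 5.35 without the highest doublet scores. Their Mt3 ratio of 2.21 was 1.23 and not called after thinning.

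Monocyte-gated cells (244 CO and 177 NC) had 3 of 4 genes called higher, beside 27.4% of all genes, the largest background of all classes, and 0 lower, beside 20.9%. The Mt1 ratio there was 3.06 (2.15 to 4.47), 1.90 without CO library 1 and 8.15 under a stricter gate, and the Mt2A and Mt3 ratios rested on 2 NC counts each. In T or NK-gated cells (109 CO and 178 NC) Mt1 was the gene with enough counts. It had 94.6, 108 and 97.3 CPM in CO and 33.4, 47.5 and 21.5 CPM in NC, a ratio of 2.90 (1.95 to 4.39), where 18.9% of all genes were called higher and 23% lower. Mt2A had 0 counts in both groups of T or NK cells, which allows up to 4.53 CPM in CO and 3.32 CPM in NC by the exact 95% Poisson interval. Erythroid-gated cells (126 CO and 224 NC) had no gene called higher and 1 called lower, beside 23.7% and 25.5% of all genes. That gene was Mt3, at 56.7 CPM in CO and 127 CPM in NC, and the call was lost without CO library 3 (0.729) or with barcodes of at least 2000 UMIs (0.870), and the ratio was 0.235 without CO library 1. Free RNA, estimated as described for Ttr, could supply 926% of this Mt3 level in CO and 413% in NC, so the call was not told apart from background. The Mt1 ratio in erythroid cells was 1.02, or 2.47 with free RNA taken off, and their median UMI count was 3060.5 in CO and 1063 in NC.

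**Figure D3:**
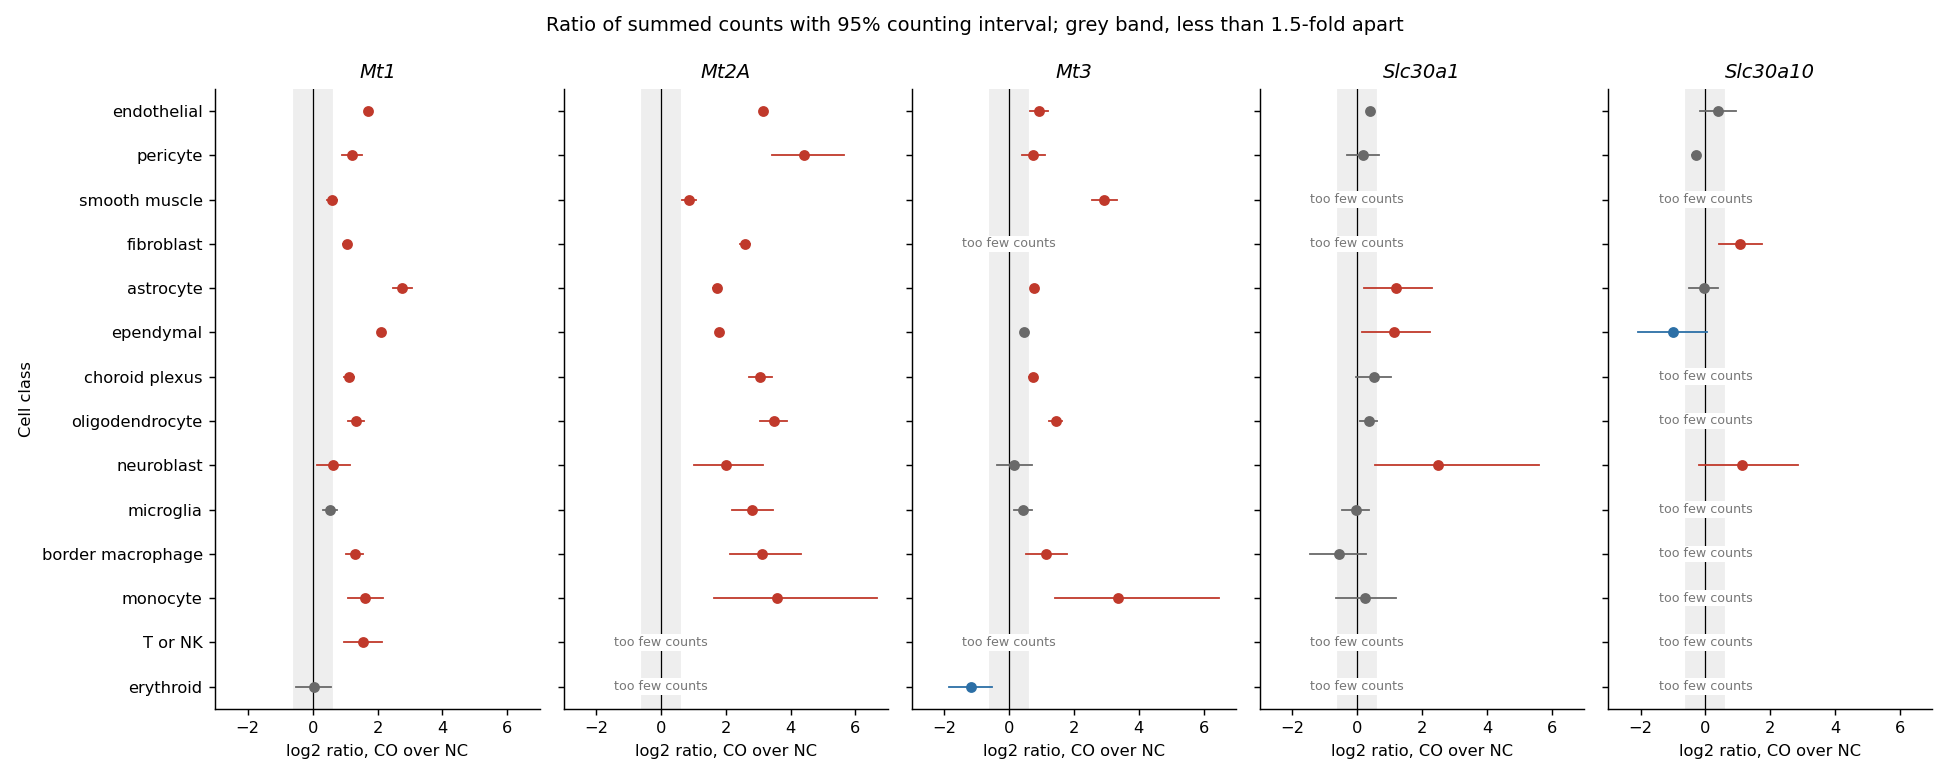
Log2 ratio of summed counts, CO over NC, for 5 genes in 14 cell classes, with the exact 95% counting interval as a line. The grey band marks ratios under 1.5-fold; red points are called higher in CO, blue points lower, dark points neither. Mt2A lies right of the band in all 12 classes with enough counts, while Slc30a1 does so in 3 of 10.

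Counted over classes, the row labelled Mt1 was called higher in 12 of 14, Mt2A in 12 of 12 with a median ratio of 7.71 (range 1.83 to 21.5), and Mt3 in 8 of 12 with 1 class lower. These counts include classes whose level was not told apart from free RNA, as given below. In barcodes under 500 UMIs the ratio was 5.01 for Mt2A and 2.16 for Mt3. The classes are therefore not all separate observations. Every CO library lay above every NC library in 12 classes for Mt1, the exceptions being neuroblasts and erythroid cells, and in 11 of 12 for Mt2A, the exception being smooth muscle; the share of all genes with this property was 10.8% to 23.3% over the classes. By class it was 23.3% in endothelial cells, 14.3% in pericytes, 13% in smooth muscle and in fibroblasts, 14.4% in astrocytes, 17% in ependymal cells and 18.2% in choroid plexus. It was 17.5% in oligodendrocytes, 14.6% in neuroblasts, 19% in microglia, 13.9% in border macrophages, 20.7% in monocytes, 10.8% in T or NK cells and 13.3% in erythroid cells. The median log2 ratio of all genes lay between -0.07 and 0.07 in each class. Beyond the 14 classes, the ungated barcodes had Mt2A at 99.3 CPM in CO and 27.9 CPM in NC (3.56-fold), and Mt3 at 96.9 and 93.3 CPM (1.04-fold).

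Barcodes under 500 UMIs (1838 CO and 2302 NC) hold free RNA and broken cells, and they carried metallothioneins too. Of 3 metallothioneins with enough counts, 3 were called higher in CO, beside 18.9% of all genes, and 0 lower, beside 23.6%. Mt2A was at 430, 540 and 467 CPM in CO and 99.7, 90.4 and 96.5 CPM in NC, a ratio of 5.01 (3.93 to 6.44). The ratio was 1.97 for Mt1 and 2.16 for Mt3. The libraries of the groups overlapped for none of the 3, and 14.6% of all genes had every CO library above. Mt3 was at 1846 CPM in CO and 854 CPM in NC in these barcodes, a level above that of every class but ependymal cells and astrocytes.

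What free RNA could add to a class was estimated with Ttr, the transthyretin gene of the choroid plexus, which the other 13 classes should lack. Ttr was lower in CO than in NC, at 18851 CPM and 33804 CPM in barcodes under 500 UMIs and at medians of 378 CPM and 916 CPM over the 13 classes. The highest class was erythroid cells, at 5367 CPM in CO and 20787 CPM in NC, which is 28.5% and 61.5% of the level in barcodes under 500 UMIs. Every CO library lay below every NC library for Ttr in each class but fibroblasts, where the ranges overlapped. By this estimate free RNA gave 0.519% of the Mt1 level and 1.51% of the Mt2A level of endothelial cells in CO, and 1.16% and 3.61% in NC. In astrocytes it gave 1.77% of Mt2A and 2.74% of Mt3 in CO, and 0.976% and 1.81% in NC. For Mt1 of astrocytes it gave 4.27% in CO and 12.2% in NC. In ependymal cells it gave 0.153% to 0.322% of the 3 genes in CO and 0.167% to 0.399% in NC.

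In the cases below the same estimate was a larger part of the measured level, and in some it passed that level. In microglia it came to 96.7% of Mt2A in CO and 178% in NC, and to 246% and 200% of Mt3. In oligodendrocytes it was 37.0% of Mt2A in CO and 98.7% in NC, in pericytes 13.8% and 85.8%, and for Mt3 of endothelial cells 172% and 203%. For Mt3 it was 147% in CO and 180% in NC border macrophages, 183% and 1327% in monocytes, and 82.9% and 125% in oligodendrocytes. For Mt3 of neuroblasts it was 108% in CO and 65.3% in NC, and for Mt3 of pericytes 55.1% and 61.8%. For Mt2A of monocytes it was 41.2% in CO and 149% in NC, and for Mt2A of border macrophages 36.6% and 76.4%. In erythroid cells it was 83.3% in CO and 93.1% in NC for Mt1, 281% and 658% for Mt2A, and 926% and 413% for Mt3. With this part taken off, the Mt2A ratio was 545 in oligodendrocytes, 131 in pericytes and 23.4 in border macrophages, so the size of these ratios depends on a small NC remainder. The estimate was too high in some classes. It gave 10.5 CPM of Mt2A and 40.6 CPM of Mt3 in CO T or NK cells, where both were at 0, and 20.8 CPM of Mt3 in CO fibroblasts, where 2.94 CPM were measured. Levels of Mt2A in microglia, and in NC monocytes, oligodendrocytes, pericytes and border macrophages, were therefore not told apart from background. Nor were levels of the 3 genes in erythroid cells. The same holds for Mt3 in endothelial cells, microglia, border macrophages, monocytes, oligodendrocytes and neuroblasts. It was not settled how much of these levels is expression. T or NK cells had Mt1 at 81 counts in CO and 38 in NC with Mt2A at 0, whereas barcodes under 500 UMIs held 0.680 Mt1 counts per Mt2A count in CO and 1.73 in NC.

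Levels can differ because more cells hold a transcript or because each holds more. To describe both, cells of at least 2000 UMIs were thinned to that depth. This left out 119 CO and 308 NC endothelial cells, 316 and 162 astrocytes, and 10 and 6 ependymal cells. Mt2A was found in 24.4% of CO endothelial cells (exact binomial interval 22.3% to 26.5%) and in 6.37% of NC endothelial cells (5.40% to 7.45%). Without thinning the shares were 34.9% and 10.1%. A positive endothelial cell held 4.48 Mt2A UMIs on average in CO and 2.03 in NC. Both the share and the count per positive cell were higher in CO. At this depth both can rise with the mean level alone, so these values do not separate more cells from more per cell. Mt2A UMIs were concentrated: the 10% of CO endothelial cells with the most held 80.3% of them, while for Mt1 this part held 57.9%.

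In astrocytes Mt1 was found in 26.4% of CO cells (22.0% to 31.1%) and 5.83% of NC cells (3.65% to 8.78%), and without thinning in 27.2% and 8.81%. The Mt2A share in astrocytes was 57.5% in CO and 30.8% in NC. Mt3 was found in 79.4% of CO and 70.0% of NC astrocytes, with 6.50 UMIs per positive cell in CO and 4.28 in NC. In ependymal cells the Mt1 share was 84.3% in CO and 50.0% in NC, with 5.94 and 2.31 UMIs per positive cell. The ependymal Mt3 share was 94.8% in CO and 94.2% in NC, near the top of the scale, with 14.4 UMIs per positive cell in CO and 10.7 in NC.

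As a measure of background, Mt2A was found in 1.44% of CO microglia (median 5948 UMIs) and 0.359% of NC microglia (median 5268.5 UMIs) after thinning. T or NK cells gave 0 of 107 CO cells and 0 of 178 NC cells. A floor of 3 cells with a UMI at this depth would be 2.80% in CO and 1.69% in NC. These shares are not exact binomial limits and set no limit on cells that hold the transcript. Mt3 was found in 1.79% of CO fibroblasts and 3.33% of NC fibroblasts, a class that should lack it. Endothelial Mt3 was found in 3.90% of CO cells and 1.36% of NC cells, within the intervals of the fibroblast shares (0.0452% to 9.55% in CO and 0.693% to 9.43% in NC). For Mt1 the microglia share was 4.85% (3.96% to 5.86%) in CO and 3.53% (2.90% to 4.24%) in NC. The interval of NC astrocytes overlapped that of NC microglia. Free RNA was estimated at 25.9% of microglial Mt1 in CO and 25.0% in NC, so these Mt1 shares are no measure of background.

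**Figure D4:**
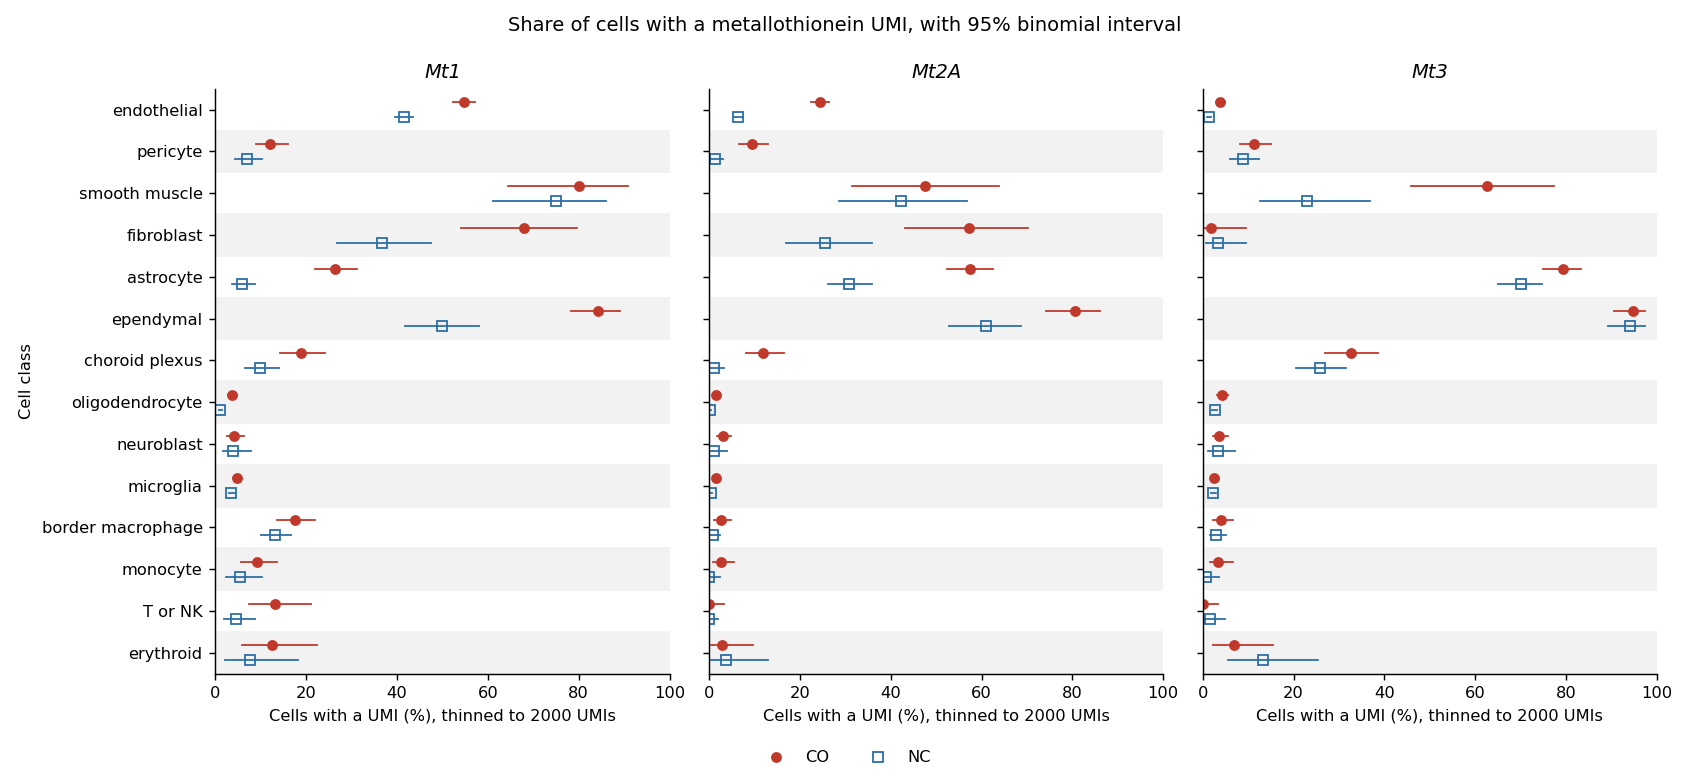
Share of cells with at least 1 UMI of Mt1, Mt2A or Mt3 after thinning each cell to 2000 UMIs, with the exact 95% binomial interval as a line. Filled circles are CO and open squares NC. The endothelial Mt2A share is 24.4% in CO and 6.37% in NC, while the ependymal Mt3 share is 94.8% in CO and 94.2% in NC.

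In endothelial cells Mt2A was found more often in cells that also held Mt1. Of thinned CO endothelial cells with Mt1, 35.5% also had Mt2A, against 10.9% of those without Mt1. In NC endothelial cells the shares were 10.8% and 3.23%. Pearson's r of the log counts was 0.50 in CO (1720 cells) and 0.27 in NC (2276 cells); the cells share libraries and a thinned depth, and r is a description. In CO fibroblasts 78.9% of cells with Mt1 had Mt2A, against 11.1% of those without it (38 and 18 cells), and in CO astrocytes 77.0% against 50.5%. Not every class had this pattern. In CO smooth muscle Mt2A was found in 46.9% of cells with Mt1 and 50.0% of cells without it (32 and 8 cells), and in CO microglia in 1.98% and 1.41%. In NC astrocytes the shares were 42.9% and 30.1% with r of 0.11, and in NC choroid plexus 0% of 25 cells and 1.30% of 231 cells. With Mt3 in place of Mt1 the CO endothelial shares were 22.4% of 67 cells and 24.4% of 1653 cells, whereas those of CO oligodendrocytes were 12.7% and 0.982% and those of CO astrocytes 59.8% and 48.7%.

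The balance between the metallothioneins differed by class. Capture differs between genes, so a ratio of counts is compared across classes and groups and not read as a ratio of transcripts. Mt1 counts per Mt2A count were 1.98 (1.92 to 2.03) in CO endothelial cells and 5.39 (5.05 to 5.76) in NC endothelial cells. In fibroblasts they were 0.770 in CO and 2.21 in NC, and in microglia 2.54 and 12.3. Astrocytes and ependymal cells went the other way, with 0.283 (0.262 to 0.304) in CO and 0.138 (0.112 to 0.168) in NC astrocytes, and 0.894 (0.865 to 0.923) in CO and 0.722 (0.666 to 0.783) in NC ependymal cells. Mt2A thus had the larger ratio between groups in endothelial cells and fibroblasts, and Mt1 in astrocytes and ependymal cells.

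The classes also differed in how much of each gene's count they held. Of all Mt3 UMIs in kept barcodes, ependymal cells held 51.9% in CO and 45.4% in NC, and astrocytes 22.5% and 20.2%. Endothelial cells held 41.2% of Mt1 UMIs in CO and 41.0% in NC, and ependymal cells 19.0% and 7.55%. These shares depend on how many cells of a class were caught, which the gate and dissociation set.

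The exporters had their highest levels in other classes than the metallothioneins did. Endothelial cells, the highest class for Slc30a1, also had high Mt1, at 1260 CPM in CO and 386 CPM in NC. Slc30a1 was highest in endothelial cells, with 108 CPM in CO and 81.8 CPM in NC, and next in pericytes, with 41.1 and 36.7 CPM, and the libraries of these classes did not overlap. Below pericytes, neighbouring classes overlapped over libraries in both groups. Endothelial markers were also counted in pericytes, and their part in the pericyte Slc30a1 level was not tested. Slc30a1 was found in 16.5% of CO and 13.2% of NC endothelial cells after thinning. Its ratio reached 1.5-fold in 3 of 10 classes, astrocytes (2.31), ependymal cells (2.20) and neuroblasts (5.67), from 34, 38 and 37 counts in CO and 12, 11 and 2 in NC. In these classes 14.4%, 17.5% and 17.5% of all genes were called higher. Every CO library lay above every NC library for Slc30a1 in 4 of the 10 classes. These were endothelial cells (23.3% of all genes), astrocytes (14.4%), choroid plexus (18.2%) and neuroblasts (14.6%). In ependymal cells its libraries overlapped, and the ratio was 5.82 without NC library 2. The monocyte ratio of 1.18 was 2.20 without NC library 2 and 4.10 under a stricter gate. In border macrophages the ratio of 0.672 was called lower under 7 alternatives. In microglia it was 0.967 (0.729 to 1.28).

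Slc30a10 had its highest level in pericytes by a wide margin. Pericytes had 645, 627 and 708 CPM in CO and 804, 776 and 835 CPM in NC, and the next class was fibroblasts in CO, at 39.7 CPM, and astrocytes in NC, at 36.6 CPM. Every CO library lay below every NC library in pericytes, where 13% of all genes did, and the ratio of 0.816 (0.756 to 0.881) did not reach 1.5-fold. The share of pericytes with a UMI was 66.9% in CO and 66.8% in NC after thinning, with 2.44 and 2.94 UMIs per positive cell. Slc30a10 was called higher in fibroblasts (2.09, or 1.47 without the highest doublet scores) and neuroblasts (2.21, from 36 and 5 counts, or 3.64 without NC library 1), with overlapping libraries in both classes. In astrocytes it was at 35.2 CPM in CO and 36.6 CPM in NC, a ratio of 0.962 (0.711 to 1.30). The endothelial ratio of 1.31 was 1.83 without NC library 3.

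**Figure D5:**
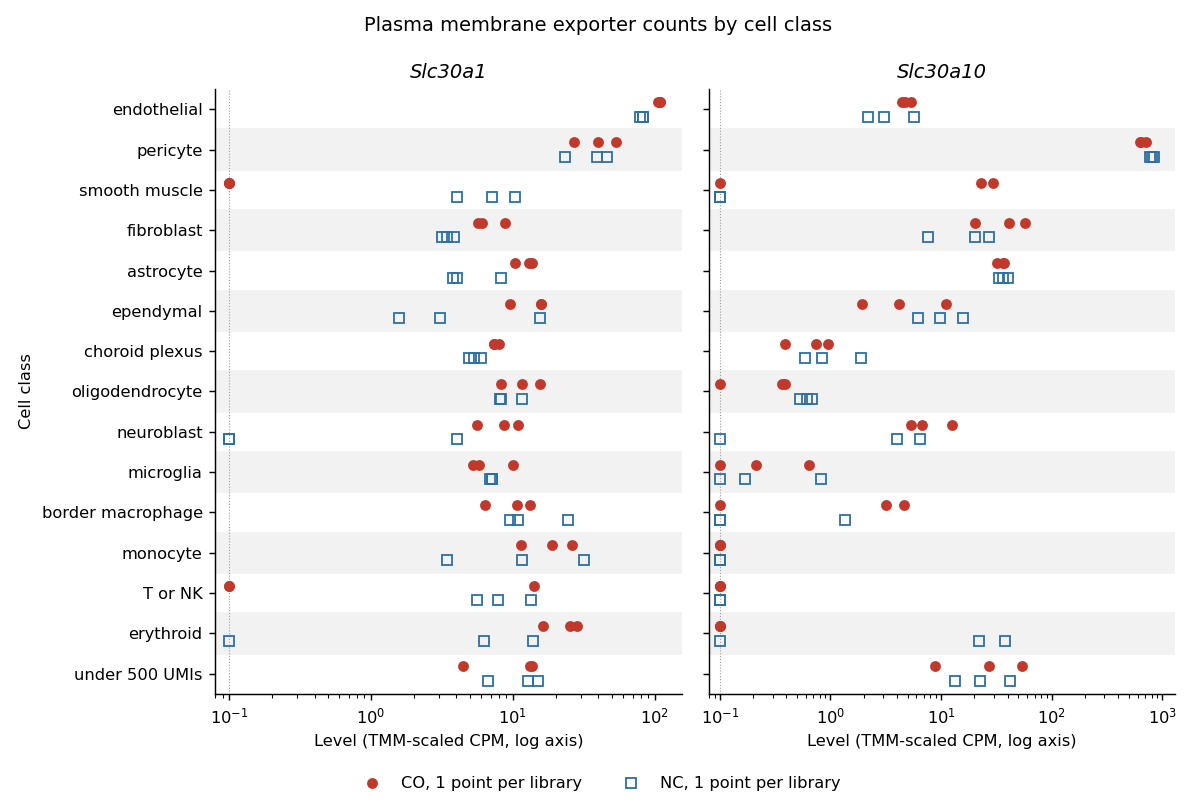
Levels of Slc30a1 and Slc30a10 (TMM-scaled CPM, log axis) in 14 gated cell classes and in barcodes under 500 UMIs, 1 point per library. Filled circles are CO and open squares NC; a value of 0 is drawn on the dotted line at the left. Slc30a1 peaks in endothelial cells and Slc30a10 in pericytes, where the CO libraries lie between 627 and 708 CPM and the NC libraries between 776 and 835 CPM.

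The pseudogene row Mt1m was sparse, with 147 counts in CO and 14 in NC over all kept barcodes. In ependymal cells it had 43 counts in CO and 3 in NC, a ratio of 9.13 (2.92 to 46.0), and in endothelial cells 32 and 10, a ratio of 3.90 (1.87 to 8.88). The endothelial ratio was 6.47 without NC library 1. Astrocytes had 21 counts in CO and 0 in NC, at least 5.70-fold higher with NC set to 3 counts over the group. The lower limit of the counting interval was 4.24-fold, and the 21 counts were under the minimum of 30.

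Other genes of metal handling were counted in ependymal cells, where 17.5% of all genes were called higher and 15.4% lower, and in microglia, where 7.18% were called higher and 10.1% lower. Of 7 further zinc exporters and vesicle transporters in the files, 5 had enough counts in ependymal cells, where 2 were called higher and 0 lower, Slc30a6 at 1.76-fold and Slc30a4 at 1.55-fold, both with overlapping libraries. The median log2 ratio of the 5 was -0.01, beside 0.01 for all genes. In microglia 0 of 5 were called higher and 1 lower, Slc30a4 at 0.622. Of 10 zinc importers with enough counts in ependymal cells, 1 was called higher, Slc39a10, with 76.0 CPM in CO and 37.9 CPM in NC, and 0 lower (median log2 0.19). In other classes, named after their values were seen, Slc39a10 was lower, with 430 CPM in CO and 1178 CPM in NC endothelial cells, a ratio of 0.365, and a ratio of 0.480 in pericytes. Every CO library lay below every NC library in both. In pericytes 13% of all genes had this property, and over the 14 classes 8.36% to 24.1% did. In microglia 0 of 11 importers were called higher and 1 lower, Slc39a14 at 0.519.

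Copper genes split in ependymal cells, where 1 of 9 was called higher and 1 lower. Cox17, which carries copper to cytochrome oxidase, was at 189 CPM in CO and 113 CPM in NC, and Slc31a1, the copper importer, at 9.95 CPM in CO and 33.5 CPM in NC. In microglia 0 of 9 were called higher and 0 lower. Of 8 iron and glutathione genes, 2 were called higher and 1 lower in ependymal cells, Gsr at 1.74, the ferritin heavy chain Fth1 at 1.51 and the cystine importer Slc7a11 at 0.486. In microglia 1 was called higher, Slc7a11 at 1.66, and 1 lower, the heme oxygenase gene Hmox1 at 0.649 (1491 CPM in CO and 2298 CPM in NC).

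Lists for glucocorticoids and cytokines, which also induce metallothioneins, were counted in the same way. Of glucocorticoid-induced genes with enough counts, 4 of 12 were called higher and 1 lower in ependymal cells, where 17.5% and 15.4% of all genes were, with a median log2 ratio of 0.30 beside 0.01 for all genes. These were Sgk1 at 3.41, Fkbp5 at 2.78, Zbtb16 at 2.55 and Tsc22d3 at 1.70, with Ddit4 at 0.611. In microglia 4 of 14 were called higher and 1 lower, where 7.18% and 10.1% of all genes were, and the list median was -0.11. Hif3a, at 9.68 CPM in CO and 0.227 CPM in NC, and Fkbp5, at 238 and 65.3 CPM, were the largest there, followed by Per1 at 2.36 and Pdk4 at 0.501. Ddit4 in ependymal cells and Zbtb16 in microglia, at 1.88, are named beyond the naming rule, after their values were seen. Every CO library lay above every NC library for Fkbp5 and Hif3a in microglia, as for 19% of all genes there. In this class Mt2A was not told apart from free RNA.

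Of cytokine targets, 3 of 8 were called higher in ependymal cells and 0 lower, beside 17.5% and 15.4% of all genes. These were the filament gene Gfap at 3.43, Cebpb at 1.79 and Lcn2 at 1.56. The Lcn2 libraries overlapped, with 7.82 CPM in CO and 5.02 CPM in NC and an interval of 0.689 to 3.84. The list had a median log2 ratio of 0.27. In microglia 1 of 7 was called higher, Gfap at 1.96 from levels of 3.55 CPM in CO and 1.82 CPM in NC. Other classes are given after their values were seen. The cytokine list had 3 of 6 genes called higher in astrocytes (14.4% of all genes) and 2 of 8 in endothelial cells (12.4%). In T or NK cells 3 of 4 were higher (18.9%). In each of these classes 0 were lower, beside 15%, 14.4% and 23% of all genes. In pericytes 2 of 7 were higher and 2 lower, beside 15.1% and 14.1%. The glucocorticoid list had 10 of 14 genes called higher in oligodendrocytes (8.57% of all genes), 7 of 14 in astrocytes (14.4%) and 5 of 14 in endothelial cells (12.4%), with 0, 1 and 1 lower. In monocytes 3 of 10 were called higher and 4 lower, beside 27.4% and 20.9% of all genes, and in T or NK cells 2 of 10 were higher and 3 lower, beside 18.9% and 23%.

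Genes with the profile most like each member were sought over 22 profiles, 11 classes in each of the 2 groups, among 12986 genes, by Pearson's r of log levels. The row labelled Mt1 was most like Rph3al (0.87), Sdcbp (0.82), Mt2A itself (0.82), Plat (0.81) and Greb1 (0.81). Mt2A was most like Lxn (0.87), Micall2 (0.84), Gstm2 (0.83), Mt1 (0.82) and Npr2 (0.81). For Mt3 these were Plppr4 (0.91), Tmie (0.90), Tspoap1 (0.90), Ccdc81 (0.90) and Tekt4 (0.89). For Mt1m they were Mall (0.83), Kif19 (0.81), Zc3h12b (0.79), Smad9 (0.78) and Plin5 (0.78). Among the exporters, Slc30a1 was most like Sox7 (0.92), Ppard (0.89), Gimap9 (0.88), Flt4 (0.87) and B3gnt2 (0.87). Slc30a10 was most like Pth1r (0.92), Fibin (0.92), Notch3 (0.91), Pde8b (0.90) and Gucy1a2 (0.90), and Notch3 is also a marker of the pericyte gate. Between members, r was 0.78 for Mt2A with Mt3, 0.55 for Mt1 with Mt3, and 0.25 for Slc30a1 with Slc30a10. The profiles share libraries and differ in depth, so these values only describe them.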

How the data were processed

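The authors deposited raw UMI counts per gene and barcode for 6 libraries; reads were processed with Cell Ranger on Rnor_6.0, per the submitters' processing notes, with no version given in the sources used here. The members and gene lists were chosen with earlier results of these data known.

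Kept barcodes had at least 500 UMIs and 200 genes. Each marker's log count per 10000 UMIs was standardised over kept barcodes and limited to 3. A barcode took the class of its highest mean score if that was at least 0.5, at least 3 markers were detected and the second score was at most 0.5 of it; 17051 kept barcodes stayed ungated. This rule was set after the data were seen. No doublet caller was applied before the gate; removing the 6% of highest Scrublet scores (scanpy 1.11.5) was an alternative. In microglia 1812 barcodes lay near the limit on the second score, in both groups together. Over 15 pairs of libraries, 1 barcode was shared.

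Counts were summed per class and library and scaled with TMM (edgeR 4.0.16). Exact binomial and Poisson intervals came from scipy 1.17.1, at 95%, and ratios against no counts used a floor of 3 counts for the group. They cover counting error only. The intervals were tried on simulated Poisson counts, the model they assume, so the trial says nothing of spread between cells or libraries. Alternatives were total counts, DESeq2 1.42.0 size factors, leaving out each library, 2000 UMIs, a stricter gate, thinning, doublet removal, free-RNA removal and other count minimums. Named genes were all members, the 5 most alike genes of each, and the 4 largest list genes at least 1.5-fold apart in ependymal cells, where Mt2A and Mt3 were highest, and in microglia. Pairing of equal library numbers was planned only for libraries found to be separate samples; they differed like parts of 1 pool.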

Additional observations from a re-analysis of the deposited data

How the results depend on the processing

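Of 56 ratios under 13 alternatives, 683 values were obtained; 611 stayed within the counting interval of the ratio as reported, 72 did not, and 0 called ratios changed direction. Of 41 called ratios, 33 kept the call under every alternative run, and 5 uncalled ratios reached 1.5-fold under some alternative. Free-RNA removal gave a value for 47 of the 56 ratios and thinning for 38. A ratio with no value under an alternative was not counted as a lost call. On the log2 scale, Mt1 in endothelial cells was 1.71, 1.62 with total counts, 1.48 after thinning and 1.66 to 1.77 with a library left out. Mt2A there was 3.15, 3.26 without the highest doublet scores and 2.91 to 3.35 with a library left out. In astrocytes Mt1 was 2.76, 3.49 after thinning and 2.54 to 3.25 with a library left out; Mt2A was 1.72, 1.98 and 1.63 to 1.85; Mt3 was 0.78, 0.70 with at least 2000 UMIs and 0.70 to 0.83. Mt3 in ependymal cells was 0.46, 0.42 with total counts, 0.52 after thinning and 0.37 to 0.53. The cause of these shifts was not tested. Genes called higher in endothelial cells numbered 1340, or 2352 with a minimum of 1 count, and genes called lower 1561, or 2365; in astrocytes they numbered 1467, or 2287, and 1529, or 2627, since more genes then enter. No paired analysis was possible because the ratios come from no test: libraries of a group differed like parts of 1 pool, so each group was counted as 1 sample. Low counts and depth were not told apart, and fewer counts than 30 gave no ratio in 28 of 84 pairs of gene and class.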
